A study of Mus musculus with 9 samples.

Results

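Lad1, Rln3, Chchd10, Tagap and Cd83 are 5 genes of the 41978 listed for SP4 thymocytes sorted by an Nr4a1 reporter. They were selected on the values described here, for low transcript levels in the cells with the least GFP and high levels in the cells with the most, so those levels and the differences between the groups are given as a description with no test. All 5 were matched by symbol and all 5 passed the filter on low values (TPM, transcripts scaled to a fixed total, of at least 1 in at least 3 samples), which a gene can pass through the group where it is high. The 9 samples came from thymi of Nur77-eGFP BAC Tg mice on the C57BL/6 background, of both sexes and aged between 3 and 10 weeks. This transgene, which all groups carried, is an artificial chromosome in which the regulatory elements of Nr4a1 drive GFP, so that GFP reports Nr4a1 transcription and not the NR4A1 protein. Live CD4+ CD8- CD25- CD69+ CD24+ cells, called semi-mature SP4 thymocytes, were sorted by GFP into gates of 10% each at the bottom (GFPlo), in the middle (GFPmed) and at the top (GFPhi) of its range, with 10000 cells a sample and 3 biological replicates a gate. The study's main text gives CD24 in this gate as low, while its methods give it as high.

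SP4 thymocytes are CD4 single-positive cells that have passed positive selection and meet self-antigens in the thymic medulla. Strong antigen receptor signals there induce Nr4a1, Nr4a2 and Nr4a3, immediate early genes whose products are orphan nuclear receptors that bind DNA as monomers at a sequence called NBRE. Cells with the strongest signals either die by negative selection, become regulatory T cells or survive with a damped response. Of the 5 genes, Rln3 encodes a secreted peptide, Cd83 a cell surface protein, Lad1 a filament-associated protein, Tagap a GTPase-activating protein and Chchd10 a protein of mitochondria.

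The samples held between 7465552 and 14943774 reads on genes, with a median of 9426281, as solved from the table. Nr4a1, which the gate was meant to follow, had 217 ± 32.1, 374 ± 28.6 and 840 ± 75.01 TPM (SD, n = 3) across GFPlo, GFPmed and GFPhi. The markers of the sorted cell were present: Cd4 had 582 ± 36.4 TPM in GFPlo and 474 ± 28.9 TPM in GFPhi, and Cd8a had 16.7 ± 2.38 and 7.15 ± 1.40 TPM. Since these are bulk samples, a larger share of cells that express a gene and more of its RNA in each cell cannot be told apart.

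Between GFPhi and GFPlo, 387 of the 30693 genes tested were called higher, which is 1.26%, and 124 were called lower, or 0.404%. A gene was called where limma gave an adjusted p (Benjamini-Hochberg) no higher than 0.05 and means that differed by 1 or more on the log2(TPM + 1) scale. All 5 genes were among those called higher. Between GFPhi and GFPmed, 166 genes were called higher (0.541%), and all 5 genes were among them. Between GFPmed and GFPlo, 17 genes were called higher (0.0554%), and Lad1 was the only member among them. Because the selection used these comparisons, nothing is read from the counts of members. The median log2 fold change of all genes tested between GFPhi and GFPlo was -0.09.

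**Figure D1:**
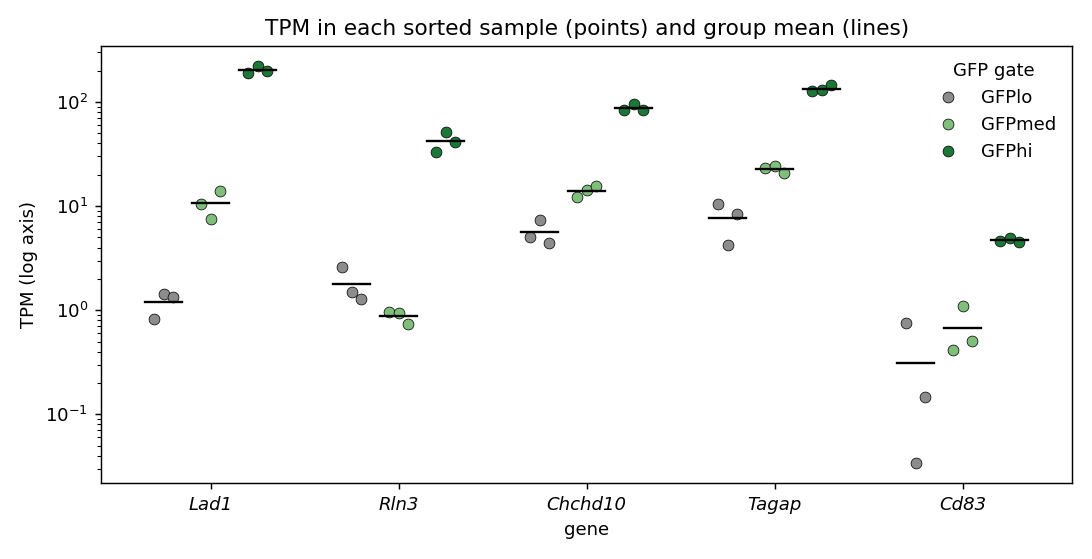
TPM of the 5 genes (log axis) in each of the 9 samples (points, coloured by GFP gate) with the group means (lines). All GFPhi points lie above all GFPlo and GFPmed points of the same gene, the GFPmed points of Rln3 lie under its GFPlo points, and the GFPmed and GFPlo points of Cd83 overlap.

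Rln3 (ENSMUSG00000045232.4, chr8:84042929-84045000, minus strand, GRCm38) encodes relaxin-3, a peptide of the insulin and relaxin family best known as a neuropeptide of the brainstem. Its RefSeq promoter on GRCm38.p6 holds an NBRE, the site bound by NR4A monomers, and is shown for that reason. The 250 bases before its RefSeq start, chr8:84044980-84045229 on the minus strand, read as follows, with the NBRE (AAAGGTCA) and a further copy of the NBRE core (AGGTCA) in capitals:
Rln3: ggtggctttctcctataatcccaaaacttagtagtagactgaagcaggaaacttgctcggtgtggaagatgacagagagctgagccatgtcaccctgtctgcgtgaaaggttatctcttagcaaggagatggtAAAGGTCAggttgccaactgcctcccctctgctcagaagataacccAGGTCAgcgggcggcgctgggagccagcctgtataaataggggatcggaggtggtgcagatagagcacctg
The NBRE lies from 117 to 110 bases before the start, and the core copy from 71 to 66 bases before it. The first 6-base core match lies within the NBRE. On either strand and over the 300 bases around the start, NBRE letters were found in 1.51% of 32851 RefSeq promoters, and core letters in 16.3%. A match is a description of the letters, not evidence that a receptor binds there.

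Rln3 had 2.58, 1.48 and 1.29 TPM in the 3 GFPlo samples, from 7, 5 and 4 reads. In GFPmed it had 0.960, 0.933 and 0.737 TPM, from 5, 3 and 2 reads. In GFPhi it had 33.3, 51.7 and 40.9 TPM, from 145, 197 and 142 reads. All GFPhi samples were far above the rest, and all GFPmed samples lay under all GFPlo samples rather than between the other groups. GFPhi was 23.5-fold higher than GFPlo in mean TPM (log2 fold change 3.95, SE 0.25), the 12th largest difference of the genes tested, and 47.9-fold higher than GFPmed (log2 fold change 4.50, SE 0.25), the 3rd largest. GFPmed against GFPlo gave a log2 fold change of -0.54, which was not called. The pooled RPM (reads of a gene scaled to the sample's total on genes) of GFPmed were 0.510 times those of GFPlo, with a 95% interval from exact binomial limits of 0.207 to 1.20 that covers counting error only. At this depth, a difference in Rln3 between GFPmed and GFPlo was not detectable beyond counting error.

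Rln3 has a gene right beside it that is well expressed in thymocytes. Il27ra, which encodes a chain of the interleukin-27 receptor, lies on the same strand 340 bases beyond the 3′ end of Rln3. It had 116 ± 10.3, 150 ± 9.18 and 203 ± 17.5 TPM across GFPlo, GFPmed and GFPhi. GFPhi against GFPlo gave a log2 fold change of 0.80 (SE 0.09, limma adjusted p = 0.00361), under the limit for a call. GFPmed lay between the other groups for Il27ra. For Rln3 it did not by TPM, though GFPmed and GFPlo did not differ there beyond counting error. On the other side, the next tested protein-coding gene, Gm10643, was 18561 bases away and gave a log2 fold change of -0.33 (limma adjusted p = 0.87).

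The receptors of relaxin-3 had few reads in all groups. Of 8 listed relaxin and insulin-like peptides and receptors, 5 were tested, 1 was called higher in GFPhi than GFPlo and 0 were called lower, with a median log2 fold change of 0.08. Over all genes tested, the shares called were 1.26% higher and 0.404% lower. The gene called was Insl3, an insulin-like peptide of gonads, with 6.40 ± 0.797, 11.7 ± 2.05 and 18.5 ± 2.67 TPM across the gates (log2 fold change 1.39, SE 0.18, limma adjusted p = 0.00573), from 10 to 48 reads a sample. It lies within Jak3 on the same strand, the kinase gene of the common gamma chain, whose log2 fold change was 1.07 (limma adjusted p = 0.0049). Jak3 is named after its values were seen. Rxfp3, the main receptor of relaxin-3, had from 1 to 24 reads a sample and 1.48 ± 0.11 TPM in GFPlo against 0.924 ± 0.722 TPM in GFPhi (log2 fold change -0.45, limma adjusted p = 0.724). Rxfp4, another receptor, had from 4 to 25 reads.

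Cd83 (ENSMUSG00000015396.4, chr13:43784775-43803132, plus strand) encodes a surface protein of the immunoglobulin superfamily that marks mature dendritic cells. It also occurs on activated lymphocytes and on thymic epithelium, where it steadies MHC class II and CD86 against the ubiquitin ligase MARCH8. In the GFPlo samples it had 0.758, 0.0338 and 0.147 TPM, from 18, 1 and 4 reads. In GFPmed it had 0.417, 1.10 and 0.504 TPM, from 19, 31 and 12 reads. In GFPhi it had 4.63, 4.89 and 4.50 TPM, from 177, 163 and 137 reads. The 3 GFPhi samples lay close together and above the others, while GFPmed and GFPlo overlapped, with GFPlo replicate 1 above 2 of the 3 GFPmed samples.

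In mean TPM, Cd83 was 14.9-fold higher in GFPhi than in GFPlo, but its log2 fold change on the log2(TPM + 1) scale was 2.15 (SE 0.26), and rank 220 by size. Its levels lie around the added value of 1, which shrinks the difference. The TPM divisor of Cd83 was 18151 bases, the mean genomic span of its transcripts, against an exonic length of 2572 bases. In pooled RPM the ratio was 16.6, with a 95% interval of 10.9 to 26.4 for counting error. GFPhi against GFPmed gave a log2 fold change of 1.78, a call kept under 9 of 17 alternatives. It was lost with a pseudocount of 0.1, with the replicate block, with only the 2 groups compared, and without GFPmed replicate 1 or 3 or any of the GFPhi replicates.

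Of 10 listed partners of CD83 (MARCH ligases, MHC class II genes and Cd86), 9 were tested, 1 was called higher and 0 were called lower, with a median log2 fold change of -0.39. Over all genes tested, the shares called were 1.26% higher and 0.404% lower. Cd86, a costimulatory ligand, had 1.49 ± 0.40, 2.78 ± 1.12 and 6.06 ± 0.808 TPM across GFPlo, GFPmed and GFPhi (log2 fold change 1.51, SE 0.27, limma adjusted p = 0.0225), a call lost under 8 of 15 alternatives, among them the removal of any GFPlo or GFPhi sample, when the adjusted p ran from 0.0516 to 0.0966. Marchf8 had a log2 fold change of -0.06 (limma adjusted p = 0.956). The nearest tested protein-coding genes, Mcur1 at 224584 bases and Jarid2 at 926342 bases, gave log2 fold changes of -0.39 (limma adjusted p = 0.122) and 0.15 (limma adjusted p = 0.732).

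Lad1 (ENSMUSG00000041782.14, chr1:135818598-135833342, plus strand) encodes ladinin-1, known from the anchoring filaments of epithelial basement membranes and from the actin cytoskeleton. It had 0.828, 1.42 and 1.34 TPM in the GFPlo samples, from 7, 15 and 13 reads. It had 10.5, 7.57 and 14.1 TPM in GFPmed, from 171, 76 and 119 reads. In GFPhi it had 191, 223 and 197 TPM, from 2602, 2644 and 2140 reads. No values of the 3 groups overlapped, and GFPmed lay between the others.

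The mean TPM of Lad1 in GFPhi was 170 times that in GFPlo. The log2 fold change of 6.55 (SE 0.22) ranked 1 among the 30693 genes tested. The pooled RPM differed 169-fold, with a 95% interval of 121 to 242 for counting error, a width set by the 35 reads in GFPlo. GFPmed was 8.94-fold above GFPlo (log2 fold change 2.39, rank 122) and GFPhi 19.0-fold above GFPmed (log2 fold change 4.16, rank 7). The call between GFPmed and GFPlo held under 11 of 18 alternatives. It was lost with median-of-ratios scaling, with the replicate block, with only the 2 groups compared, and without GFPlo replicate 2 or 3 or GFPmed replicate 1 or 3.

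The genes that share the usual setting of Lad1 were not called. With 1.26% of all genes tested called higher and 0.404% lower, so short a list can hold no call. Of 12 listed genes of basement membrane anchorage and hemidesmosomes, the junctions that fix epithelium to its base, 10 were tested, and 0 were called higher or lower in limma or in limma-voom. The median log2 fold change of the 10 was -0.22. At an unadjusted p under 0.05, 3 were higher and 1 was lower in GFPhi. The higher ones were Cd151, Itga6 and Plec, with log2 fold changes of 0.84, 0.73 and 0.37 (limma adjusted p from 0.0931 to 0.343). Itga6 had 5.59 ± 0.556 TPM in GFPlo and 9.93 ± 1.22 TPM in GFPhi, and Plec 39.1 ± 1.69 and 51.0 ± 8.26 TPM. The next 2 genes went the other way. Col17a1, a hemidesmosome collagen, had 1.90 ± 0.872 TPM in GFPlo and 1.02 ± 0.518 TPM in GFPhi (limma adjusted p = 0.531), and Lamb3, a laminin chain, had 2.72 ± 0.647 and 2.28 ± 0.855 TPM (limma adjusted p = 0.85). The genes next to Lad1 were Tnni1, 7609 bases away, and Tnnt2, 3012 bases away, both troponin genes of striated muscle. Their log2 fold changes were 0.31 (limma adjusted p = 0.756) and -0.07 (limma adjusted p = 0.959).

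Tagap (ENSMUSG00000033450.8, chr17:7926000-7934897, plus strand) encodes a GTPase-activating protein found in activated T cells. It had 10.4, 4.23 and 8.32 TPM in GFPlo, from 61, 31 and 56 reads. In GFPmed it had 23.4, 24.1 and 20.9 TPM, from 264, 168 and 123 reads. In GFPhi it had 128, 129 and 146 TPM, from 1214, 1067 and 1098 reads. The groups did not overlap, and the GFPlo samples spread the most for their level. GFPhi was 17.6-fold higher than GFPlo (log2 fold change 4.04, SE 0.26, rank 11). GFPmed was 2.98-fold higher than GFPlo (log2 fold change 1.53, SE 0.26), not called except in limma-voom with library totals or with size factors.

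Tagap shares sequence with other genes. Of the 3027 stretches of 50 bases in its exons, 57.5% also occur in another gene: 1441 in its paralog Tagap1, 578 in the antisense gene E430024P14Rik and 211 in Gm49719. The authors' counter leaves out reads that map to several places, so shared stretches can lower the counts of both paralogs. Tagap1 (chr17:6955011-6961156, minus strand) had 59.2 ± 8.88, 59.8 ± 7.54 and 53.1 ± 8.31 TPM across GFPlo, GFPmed and GFPhi. GFPhi against GFPlo gave a log2 fold change of -0.15 (SE 0.15, limma adjusted p = 0.785). The values of Tagap1 overlapped between all groups, unlike those of Tagap.

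E430024P14Rik, named after its values were seen, runs antisense to the whole of Tagap. It had 25, 49 and 50 reads in GFPlo, 144, 92 and 81 reads in GFPmed and 452, 397 and 434 reads in GFPhi. Its log2 fold change was 2.15 (SE 0.20, limma adjusted p = 0.00113). The libraries do not mark strand, so reads from Tagap and from the antisense gene cannot be told apart where their exons overlap. The nearest other protein-coding genes tested were Rsph3a at 10717 bases (log2 fold change 0.71, limma adjusted p = 0.226) and Tcp10a at 580026 bases (log2 fold change -0.17, limma adjusted p = 0.889).

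**Figure D2:**
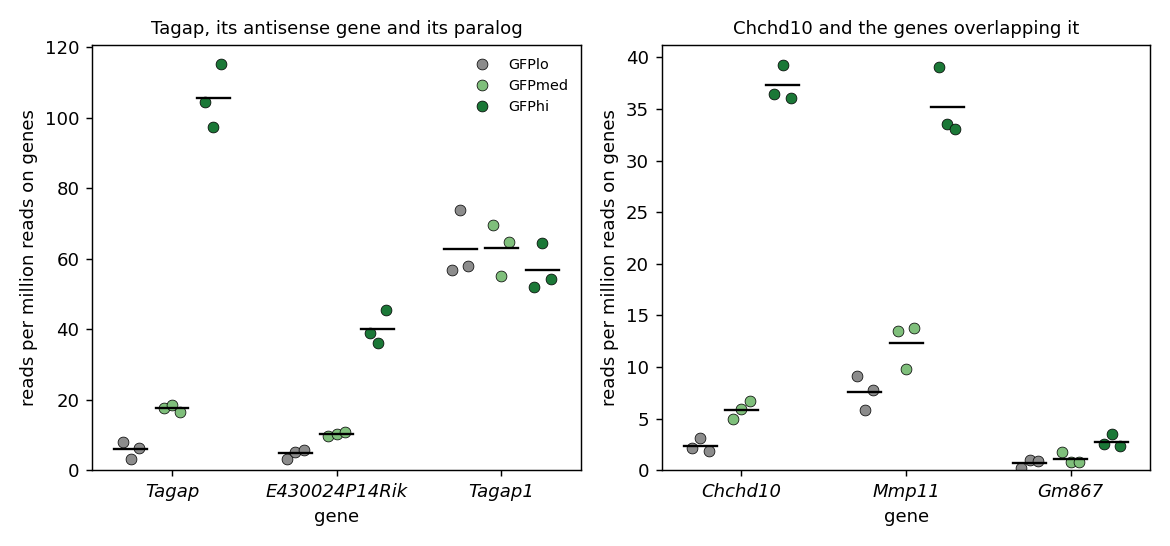
RPM (linear axis from 0) in each of the 9 samples (points) with group means (lines), for Tagap, the antisense gene over it and its paralog (left) and for Chchd10 and the genes that overlap it (right). Tagap and E430024P14Rik are highest in all GFPhi samples, the Tagap1 points overlap between the gates, and Mmp11 is highest in all GFPhi samples.

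Chchd10 (ENSMUSG00000049422.7, chr10:75933130-75937747, plus strand), also named Ndg2, encodes a small protein of the mitochondrial intermembrane space that is linked to cristae organisation and, when mutated in people, to motor neuron disease. Its RefSeq promoter holds the NBRE core but not the full site, since the base just before the core differs, and is shown beside that of Rln3 for this difference. The 250 bases before its start, chr10:75932880-75933129 on the plus strand, carry the core on the opposite strand (TGACCT, in capitals) from 112 to 107 bases before the start:
Chchd10: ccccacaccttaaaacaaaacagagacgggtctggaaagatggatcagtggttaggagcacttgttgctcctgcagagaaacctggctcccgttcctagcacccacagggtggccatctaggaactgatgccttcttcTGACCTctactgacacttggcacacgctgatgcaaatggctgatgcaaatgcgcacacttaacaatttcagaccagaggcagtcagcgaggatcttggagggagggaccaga
Of the 4 members with a RefSeq promoter, 1 held the NBRE and 2 the core. GGAAA, the core bound by NFAT factors, was in 4 of 4, against 61.3% of all promoters. The AP-1 letters TGANTCA (7.81% of all promoters) and the kappaB consensus (4.51%) were in 0 of 4. The EGR letters GCGNGGGCG (5.55%) were in that of Tagap, from 44 to 36 bases before its start.

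Chchd10 had 5.03, 7.32 and 4.40 TPM in GFPlo, from 16, 29 and 16 reads. It had 12.1, 14.3 and 15.7 TPM in GFPmed, from 74, 54 and 50 reads. In GFPhi it had 82.9, 96.4 and 84.3 TPM, from 424, 431 and 344 reads. The groups did not overlap, and GFPmed lay between the others. GFPhi was 15.7-fold higher than GFPlo (log2 fold change 3.78, SE 0.18, rank 22) and 6.26-fold higher than GFPmed (log2 fold change 2.57). GFPmed was 2.51-fold higher than GFPlo (log2 fold change 1.21, SE 0.18), not called.

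Chchd10 overlaps Mmp11, a matrix metalloproteinase gene on the opposite strand, over 3367 bases, and 7.09% of its exonic stretches of 50 bases lie in Mmp11 too. Mmp11 had 8.24 ± 1.80, 13.5 ± 2.38 and 37.7 ± 2.63 TPM across GFPlo, GFPmed and GFPhi, and was called higher in GFPhi than GFPlo (log2 fold change 2.08, SE 0.19, limma adjusted p = 0.00102). Gm867 overlaps the other end by 25 bases and had from 2 to 38 reads a sample (log2 fold change 1.50, limma adjusted p = 0.0794). Both overlapping genes are named after their values were seen. Without strand, reads in the shared bases cannot be told apart. Of the nearest genes that do not overlap, Smarcb1, a chromatin remodeller subunit 11513 bases away, gave a log2 fold change of 0.08 (limma adjusted p = 0.819) and Vpreb3, 5310 bases away, one of 0.12 (limma adjusted p = 0.928).

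The relatives of Chchd10 were not called. Since 1.26% of all genes tested were called higher and 0.404% lower, a list of this length can hold no call. Of 23 listed CHCH-domain and MICOS genes, which encode small mitochondrial import substrates and the complex that shapes cristae, 22 were tested, and 0 were called higher or lower in limma, 0 had an unadjusted p under 0.05, and 0 were called in limma-voom. Their median log2 fold change was 0.03. Its close relative Chchd2 had 154 ± 15.2, 146 ± 12.5 and 186 ± 29.9 TPM across GFPlo, GFPmed and GFPhi (log2 fold change 0.27, limma adjusted p = 0.438), and Immt, the core of MICOS, gave a log2 fold change of -0.02 (limma adjusted p = 0.965).

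**Figure D3:**
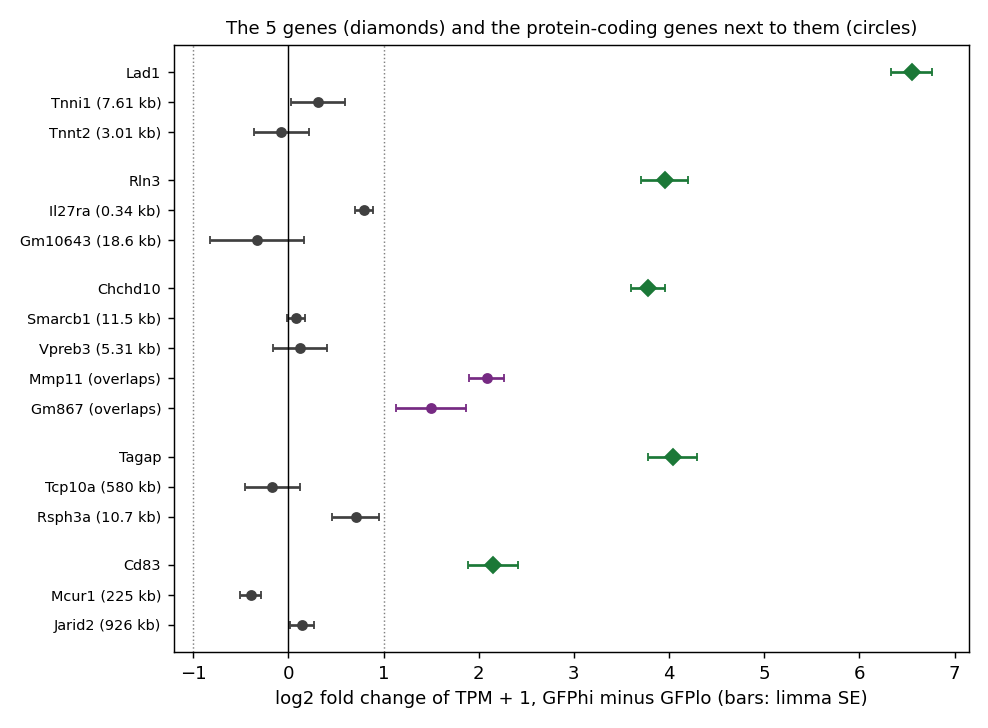
Log2 fold change of TPM + 1, GFPhi minus GFPlo, of the 5 genes (diamonds) and of the nearest tested protein-coding genes on each side or overlapping them (circles, distance in brackets), with limma SE as bars and the call limits of -1 and 1 as dotted lines. The genes beside the members lie between -0.39 and 0.80, and the overlapping Mmp11 and Gm867 lie at 2.08 and 1.50.

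Over the 5 genes, 10 flanking protein-coding genes were thus tested by position, which the selection did not use. Of these, 0 were called in limma or in limma-voom, 2 were higher and 1 was lower at an unadjusted p under 0.05, and 1, Il27ra, had an adjusted p of at most 0.05. Over all genes tested, 1.26% were called higher and 0.404% lower, so few calls could be looked for among 10 genes.

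How far each gene had come in GFPmed was expressed as the share of the rise, that is, the GFPmed mean minus the GFPlo mean, as a percent of the GFPhi mean minus the GFPlo mean. On the log2(TPM + 1) scale, Tagap had reached 37.9% (SD 2.57 over the 3 GFPmed samples), Lad1 36.5% (SD 6.20) and Chchd10 32.0% (SD 4.67). Cd83 had reached 17.1% (SD 14.2), with 6.93, 33.3 and 10.97% in the single samples. Rln3 was at -13.7% (SD 2.42). By this SD, Tagap, Lad1 and Chchd10 did not differ beyond their spread, the range of Cd83 reached into theirs, and Rln3 lay under all of them. The SD leaves out the spread of the GFPlo and GFPhi samples. The negative share of Rln3 rests on 10 reads in GFPmed and 16 in GFPlo, levels that did not differ beyond counting error.

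The scale mattered. In linear TPM the shares were 11.9% for Tagap, 10.3% for Chchd10, 8.27% for Cd83, 4.70% for Lad1 and -2.26% for Rln3. Lad1 moved from the second place to the fourth. Of the 387 genes called higher in GFPhi, the median share was 32.0% (quartiles 17.9 and 44.7%) on the log2 scale and 19.96% (quartiles 9.53 and 31.8%) in linear TPM. Rln3 had the 4th lowest share of the 387 on the log2 scale, among 29 at or below 0, and the 16th lowest in linear TPM.

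**Figure D4:**
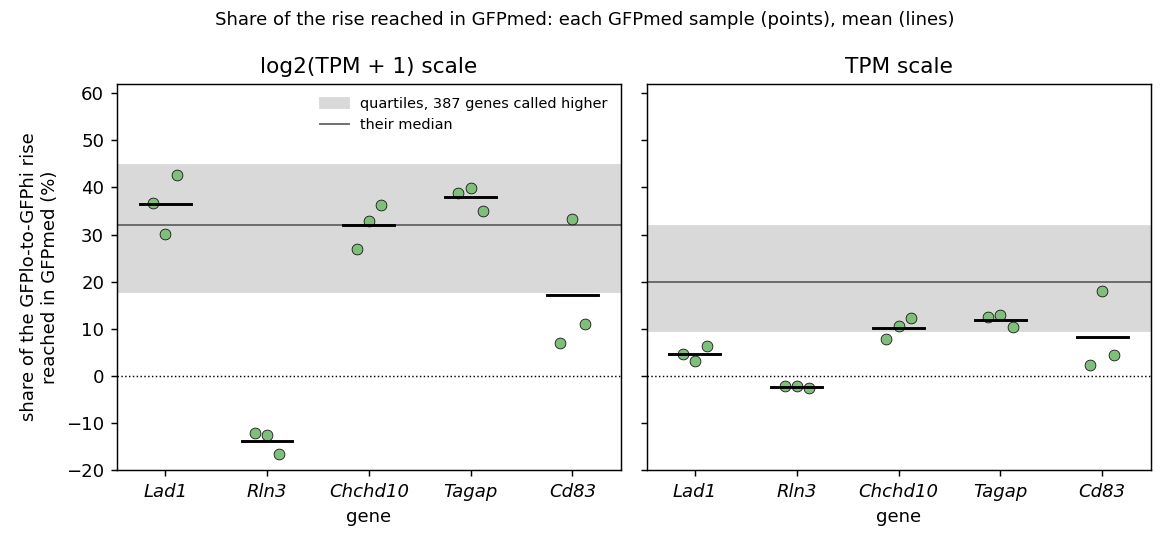
Share of the GFPlo-to-GFPhi rise reached in GFPmed, in percent, for the 5 genes on the log2(TPM + 1) scale (left) and in linear TPM (right), with each GFPmed sample as a point and the mean as a line, over the quartiles (band) and median (grey line) of the 387 genes called higher. Rln3 lies under 0 on both scales, and Lad1 falls from 36.5% to 4.70% between the scales.

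Levels can be set beside each other only per length of mature transcript. In RPM per exonic kilobase in GFPhi, Lad1 had 67.6 ± 2.87, Tagap 34.3 ± 2.92, Rln3 23.8 ± 4.33, Chchd10 23.7 ± 1.11 and Cd83 5.76 ± 0.168 (SD, n = 3), against 342 ± 17.3 for Nr4a1. Rln3 and Chchd10 did not differ beyond their spread on this scale, and the other neighbours in the order did. In TPM, where the divisor is the genomic span, Chchd10 (87.9 ± 7.44) stood above Rln3 (42.0 ± 9.28). In GFPlo the same measure was 1.93 ± 0.791 for Tagap, 1.49 ± 0.412 for Chchd10, 1.01 ± 0.398 for Rln3, 0.393 ± 0.105 for Lad1 and 0.382 ± 0.477 for Cd83. The order of Lad1 thus changed from among the lowest in GFPlo to the highest in GFPhi.

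By pattern over the 9 samples, which share their 3 groups, the gene most like Lad1 was Tnfrsf9 (4-1BB, a costimulatory receptor), with Pearson r = 0.999 on log2(TPM + 1), followed by Emp3 (0.997) and the condensin gene Smc4 (0.997). The means of Tnfrsf9 were 2.17, 12.8 and 194 TPM in order of the gates, beside 1.20, 10.7 and 204 TPM for Lad1. Chchd10 was most like Cyth4 (0.998), a guanine nucleotide exchange factor with means of 6.94, 17.3 and 101 TPM, then Tnfrsf9 (0.994) and Smc4 (0.993). Tagap was most like Ctss, the lysosomal protease cathepsin S (0.997), Bcl3, an atypical IkappaB protein (0.994), and Ms4a4b (0.992). Cd83 was most like the tetraspanin Cd9 (0.991), Neurl3 (0.986) and Calhm6 (0.984). Rln3 was most like Fibcd1 (0.990), Gm10406 (0.989) and Ggta1 (0.989). Their GFPmed and GFPlo means were 0.225 and 0.281 TPM, 0.0545 and 0.0809 TPM, and 3.10 and 3.37 TPM. The choice by likeness to Rln3 favours genes with GFPmed under GFPlo, so nothing is read from this. Fibcd1 and Gm10406 were under 1 TPM in both groups. The correlations in this paragraph rest on n = 9 samples and mostly on the step between groups, and they do not measure its size. Between GFPhi and GFPlo, Ctss had a log2 fold change of 1.58 beside 4.04 for Tagap. Emp3 had 2.22 beside 6.55 for Lad1, and Cd9 had 0.95 beside 2.15 for Cd83. Others were larger than their member, such as Bcl3 with 4.74 and Neurl3 with 3.56.

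All 3 NR4A genes were called higher in GFPhi than in GFPlo, beside 1.26% of all genes tested. The gates were set on GFP driven by Nr4a1 regulatory elements, so the call of Nr4a1 is a check of the sort and not a separate result. Nr4a1 had a log2 fold change of 1.95 (SE 0.12, limma adjusted p = 0.000188) and Nr4a3 of 1.97 (SE 0.17, limma adjusted p = 0.000962). Nr4a2 had one of 1.10 (SE 0.23, limma adjusted p = 0.0438), a call lost under 9 of 15 alternatives, among them the removal of any GFPlo sample or of GFPhi replicate 2 or 3. The log2 fold changes of all 5 members were larger than those of the NR4A genes, but the members were selected for this difference, so nothing is read from that order. The log2 fold change of Cd83 (2.15, SE 0.26) lay within its SE of those of Nr4a1 and Nr4a3. For Cd83, whose value of 2.15 is shrunk by the added 1, the mean TPM differed 14.9-fold, against 3.87-fold for Nr4a1. The study names transcripts that depend on Nr4a genes in OT-II thymocytes, whose antigen receptor is a transgene, Lad1, Rln3 and Chchd10 among them. A list of 10 others, not independent evidence since it was set with results of these samples known, was looked at beside the members. All 10 were tested here, 7 were called higher and 0 lower, with a median log2 fold change of 1.99. Over all genes tested, the shares called were 1.26% higher and 0.404% lower. Tnfrsf9 gave 5.96, Arhgap20 4.77, Eno3 (a muscle enolase) 3.84 and Bcl2l11 (the death protein BIM) 3.04, with limma adjusted p from 6.59e-06 to 6.49e-05. Acvrl1, a receptor of the TGF-beta family, went the other way, under the fold limit, with a log2 fold change of -0.78 (limma adjusted p = 0.00282). Whether the 5 genes depend on Nr4a genes was not tested in these samples.

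Cells other than SP4 thymocytes were looked for with marker lists, since Lad1 is known from epithelium and Cd83 from dendritic cells. Of 12 thymic epithelial markers, 6 were tested and 1 was called higher, Epcam, with 2.79 ± 0.571 TPM in GFPlo and 8.78 ± 0.447 TPM in GFPhi (log2 fold change 1.38, limma adjusted p = 0.012, and 0.0559 without GFPhi replicate 3), while limma-voom called 2. Ly75, an endocytic receptor also found on dendritic cells, had 1.81 ± 0.114 TPM in GFPlo and 4.19 ± 0.463 TPM in GFPhi (log2 fold change 0.88, limma adjusted p = 0.0392, under the limit for a call), from 229 to 793 reads a sample. The summed level of the epithelial list was 35.0 to 52.5 RPM in GFPlo, 50.9 to 57.2 in GFPmed and 83.3 to 94.4 in GFPhi. Its defining genes Aire and Psmb11 had from 4 to 14 and from 2 to 16 reads a sample, with 0.615 ± 0.0692 TPM of Aire in GFPhi. The other markers tested had from 2 to 44 reads a sample. Krt8, Krt14, Krt18 and Psmb11 gave log2 fold changes of 0.19, -0.63, -0.14 and -0.02 (limma adjusted p from 0.681 to 0.991).

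Of 14 dendritic cell and macrophage markers, 7 were tested and 0 were called higher or lower in limma or limma-voom, with 0 at an unadjusted p under 0.05. Their summed level was 52.7 to 81.9 RPM in GFPlo and 39.5 to 76.4 in GFPhi, which overlap, and Clec9a had from 1 to 7 reads a sample. Of 9 B cell markers, 6 were tested and 0 were called in limma or limma-voom, with 1 lower at an unadjusted p under 0.05 and with sums of 142 to 161 RPM in GFPlo and 88.1 to 121 in GFPhi. Of these 3 lists, the epithelial sum alone was higher in every GFPhi sample than in every GFPlo sample. In every sample Ly75 had the most reads of the epithelial list, and the keratins and Psmb11 were not called. Of all genes tested, 1.26% were called higher and 0.404% lower, so lists this short can hold no call.

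CD25+ cells were gated out of the sort. The calls below stand beside 1.26% of all genes tested called higher and 0.404% called lower, and the lists were chosen with earlier results known. Of 7 regulatory T cell markers, 4 were called higher in GFPhi than GFPlo and 0 lower: Tnfrsf1b (log2 fold change 2.77), Il2ra, which encodes CD25 (2.68), Ikzf4 (2.46) and Foxp3 (1.10, and 0.99 without GFPhi replicate 3), with limma adjusted p from 9.95e-06 to 0.00987. The other 3 were Lrrc32 (log2 fold change 1.27, limma adjusted p = 0.058), Gpr83 (0.44, limma adjusted p = 0.255) and Il1rl1 (-0.11, limma adjusted p = 0.951). The summed level of the list was 201 to 224 RPM in GFPlo, 293 to 353 in GFPmed and 696 to 729 in GFPhi. This sum is weighted to Tnfrsf1b, with 365 to 4305 reads a sample, and Gpr83, with 904 to 3095. Foxp3 had 102 to 399 reads and Il2ra 15 to 357. Tnfrsf1b had 10.3 ± 0.531, 18.1 ± 1.13 and 75.7 ± 0.998 TPM across GFPlo, GFPmed and GFPhi. Foxp3 had 6.75 ± 0.249, 6.33 ± 0.835 and 15.7 ± 2.38 TPM in the 3 groups, and so, like Rln3, it was not higher in GFPmed than in GFPlo by mean. Among the sort's other excluded markers, Cd8a was called lower (log2 fold change -1.12, limma adjusted p = 0.0158). That call was lost under 5 of 15 alternatives. These were median-of-ratios scaling (limma adjusted p = 0.147), only the 2 groups compared (0.071), and leaving out GFPlo replicate 2 or 3 or GFPhi replicate 3. Of 12 SP4 markers, Cd5 was called higher (log2 fold change 1.61, limma adjusted p = 0.000188) and 0 were called lower. Past the adjusted p but under the fold limit, Cd69, a marker of the gate, had a log2 fold change of -0.79 (limma adjusted p = 0.0142) and Gata3, a factor of the CD4 lineage, one of -0.74 (limma adjusted p = 0.0149). Where limma called 0 genes of a list lower, limma-voom called 0 lower too. At an unadjusted p under 0.05, 4 SP4 markers, 1 partner of CD83 and 1 OT-II transcript were lower, and 0 of the regulatory T cell, epithelial, relaxin and NR4A lists. The part of these cells in the levels of the 5 genes was not tested.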

How the data were processed

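Bulk RNA-seq of 9 sorted SP4 thymocyte samples (GFPlo, GFPmed and GFPhi, 3 each) was analysed. RNA from 2000 cell equivalents was amplified with SMART-seq v4, which does not mark strand. The authors' pipeline comprised trimming, alignment to GRCm38 (STAR 2.7.11b, GENCODE annotation), removal of identical duplicates and gene counting, and the deposited TPM values were made from those counts. The table also holds, per group, the authors' mean normalized signal, that is, read counts divided by DESeq2 1.34.0 size factors. Its columns of fold changes, adjusted p-values and call flags were not used, and 0 sample columns were left unused.

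TPM and the group means together gave whole reads (within 0.01 read) for 100% of values, over 41578 genes; 400 were not solved. TPM was divided by the mean transcript span (100% of 40660 genes matched by ID, earlier GENCODE release of the same build), so TPM cannot be compared between genes as if per exonic length. Reads carry no molecular identifiers, so intervals cover counting error only. Totals ran from 7465552 to 14943774 reads.

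log2(TPM + 1) was fitted with limma 3.58.1 (R 4.3.3), 1 model over the 9 samples with eBayes and a trend, for the 30693 genes that reached a TPM of 1 in 3 or more samples. Calls needed a log2 fold change of 1 or more in size and an adjusted p (Benjamini-Hochberg) no higher than 0.05. Fold changes on this scale understate those of low genes. The fit was tested on simulated data in which no genes with low mean levels were changed, so that test does not cover genes as low as Cd83. Samples were grouped by their labels, and p-values measure the spread between samples labelled as biological replicates.

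The members and gene lists were chosen with earlier results of these data known. Besides the members, the genes named are the NR4A genes, the 3 most alike in pattern to each member, the nearest tested protein-coding gene on each side, and list genes called (at most 4 a list) or defining markers near 0. List genes given as examples without a call were chosen after their values were seen. Alternatives were a pseudocount of 0.1, median-of-ratios scaling, no filter, a filter at TPM 5, the replicate block, a fit of only the 2 groups, no trend in eBayes, limma-voom on solved reads with library totals, linear TPM for the shares, and each sample left out in turn. limma-voom with size factors was chosen after seeing the data. Promoters came from RefSeq, with no entry for Cd83. Some gene lists are not reported here.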

Additional observations from a re-analysis of the deposited data

How the results depend on the processing

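All 5 genes were called higher in GFPhi than GFPlo under every alternative in which they were tested (18, or 17 for Cd83, which a TPM of at least 5 left out). In the main fit, 1.26% of all genes tested were called higher. Because this difference chose the 5 genes, nothing is read from their calls. Genes lower in GFPhi than GFPlo (124) numbered 70 with median-of-ratios scaling and 81 with only the 2 groups compared. Genes higher in GFPmed than GFPlo (17) numbered 5 with median-of-ratios scaling, 5 with the replicate block, 7 with only the 2 groups and 8 without the trend. Genes lower in GFPmed than GFPlo (1) numbered 4 with a pseudocount of 0.1, 3 with only the 2 groups and 0 with median-of-ratios scaling, the replicate block or no trend. Genes higher in GFPhi than GFPmed (166) numbered 86 with median-of-ratios scaling, 260 with limma-voom on library totals and 294 with limma-voom on size factors, and genes lower (46) numbered 16 with median-of-ratios scaling and 77 with limma-voom on library totals. Genes higher in GFPhi than GFPlo (387) stayed within 1.5 times.

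The log2 fold change of Lad1 between GFPhi and GFPlo was 7.33 with a pseudocount of 0.1, 7.38 with limma-voom on library totals and 7.49 on size factors. For Rln3 these were 4.52, 4.50 and 4.54, for Cd83 3.97, 4.75 and 4.76, and for Chchd10 4.06 on size factors. Added to reads or TPM, the smaller constant shrinks low levels less. The share of the rise of Rln3 was -19.8% with a pseudocount of 0.1, -19.7 and -18.6% with limma-voom on library totals and size factors, and -2.26% in linear TPM. That of Cd83 was 37.4% with limma-voom, on both library totals (37.44) and size factors (37.39). Those of Lad1, Chchd10 and Tagap were 4.70, 10.3 and 11.9% in linear TPM.

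With each sample left out, genes higher in GFPhi than GFPlo numbered 275 to 354 and lower 80 to 169; higher in GFPmed than GFPlo 2 (without GFPmed replicate 3) to 16 and lower 0 to 3; higher in GFPhi than GFPmed 92 (without GFPhi replicate 3) to 157 and lower 27 to 59. The share of the rise ran from -17.5 to -8.36% for Rln3, the latter without GFPlo replicate 1, from 32.4 to 41.3% for Tagap, from 33.4 to 39.6% for Lad1, from 29.6 to 35.1% for Chchd10 and from 8.95 to 25.1% for Cd83. With each GFPlo or GFPhi sample left out, the log2 fold change between GFPhi and GFPlo ran from 6.42 to 6.63 for Lad1, 3.79 to 4.15 for Rln3, 3.65 to 3.96 for Chchd10, 3.71 to 4.27 for Tagap and 1.998 to 2.38 for Cd83.

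Of the 471 values of other genes followed under the alternatives, 423 kept direction and call, 42 lost the call, 1 gained it and 5 turned in sign. The turns were of uncalled genes: Tnnt2 at 0.031 with limma-voom on size factors, and with samples left out Tnnt2 (from -0.28 to 0.13), Vpreb3 (-0.15 to 0.33) and Tcp10a (-0.40 to 0.040). Gm867 gained a call with limma-voom on size factors (limma adjusted p = 0.0388). The causes of these changes were not tested.

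The labels give the groups the same replicate numbers, without saying whether a number stands for the same mice. The mean correlation of deviations from group means was 0.0609 for samples with the same number (9 pairs, all positive, 0.0122 to 0.225). For the others it was -0.0305 (18 pairs, -0.185 to 0.148). Taking deviations from group means ties both means together, so the second is no separate contrast. These values do not settle whether the numbers pair samples. The main fit did not pair them, and the replicate block was an alternative. Under the replicate block the calls numbered 346 higher and 124 lower for GFPhi against GFPlo, and 126 and 34 for GFPhi against GFPmed. Reads limit Rln3 and Cd83 in GFPlo and GFPmed, with at most 31 reads a sample.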
